A study of Homo sapiens with 30 samples.

Results

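To see which transcripts differ when AKT signaling alone was switched on in prostate epithelial cells, the RNA levels of RWPE1-mAKT cells were compared with those of RWPE1-vector cells. RWPE1 is an immortalized line of normal human prostate epithelium, and mAKT is a myristoylated, constitutively active AKT delivered by retrovirus from the pBabe-puro plasmid. Both lines were selected cell populations, grown in keratinocyte serum-free medium with EGF and bovine pituitary extract, and both carried the empty pQCXIH vector. The RWPE1-vector cells also carried empty pBabe-puro, so the lines differed by the Myr-AKT insert. Another pair of lines, RWPE1-ERG and RWPE1-ERG/mAKT, carried ERG, an ETS family oncoprotein of prostate cancer, in pQCXIH. The deposited table gives 1 FPKM value (fragments per kilobase of transcript, relative to sequencing depth) per gene and line, pooled over 3 libraries. Nothing says whether the 3 libraries came from separate cultures, the depth of the libraries is unknown, and no error or test between libraries could be computed. Of 26255 genes, the 12265 that reached 1 FPKM in RWPE1-vector or RWPE1-mAKT cells were compared, and the values nearest to that limit were 1.0004 FPKM inside it and 0.9999 FPKM outside it. A gene below 1 FPKM in 1 of these lines was compared only if the other line reached it, which fixed its direction. The log2 ratio given throughout is log2 of (mAKT FPKM + 1) over (vector FPKM + 1), which understates the differences of low genes.

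AKT is the kinase at the centre of the PI3K pathway, which growth factor receptors activate. Active AKT phosphorylates FOXO transcription factors, which then leave the nucleus, and releases the mTORC1 kinase complex, which promotes translation and the synthesis of lipids and nucleotides. The pathway is often active in prostate cancer, and in stratified epithelia it is known to accompany keratinocyte differentiation.

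The targeted gene was checked at the AKT1 row of the table (hg19 chromosome 14, 105235687 to 105262080). AKT1 was 58.7 FPKM in RWPE1-vector and 156 FPKM in RWPE1-mAKT cells, a log2 ratio of 1.40, and it was 64.2 and 281 FPKM in the pair with ERG. The labels do not name the AKT isoform of the insert, and reads of the insert and of the cells' own AKT1 cannot be told apart in this value. AKT2 was 28.5 and 30.5 FPKM. The 4 genes given as markers of the comparison were chosen with these values known and test nothing. KRT13, a keratin of stratified epithelium, was 4.10 and 111 FPKM, the cornified envelope precursor SPRR1A was 1.00 and 20.3 FPKM, the proteoglycan VCAN was 7.17 and 0.915 FPKM, and the intermediate filament gene VIM was 737 and 366 FPKM. ERG was 0.264 and 0.435 FPKM, and the epithelial genes EPCAM and CDH1 were 65.0 and 33.7 FPKM in the vector line. Of the 14 endothelial, 9 fibroblast and 11 leukocyte marker genes, 2, 1 and 1 reached 1 FPKM in either line, and none of these differed by 2-fold.

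Small RNA genes made up most of the differences. Of the 12265 genes, 248 (2.02%) differed by at least 2-fold, of which 145 (1.18%) were higher and 103 (0.84%) were lower in RWPE1-mAKT cells. The 420 genes of microRNAs, small nucleolar RNAs and other short transcripts held 105 of the higher and 72 of the lower genes, so that 42.1% of them passed 2-fold. In 113 of the 420 the value was 0 in 1 of the lines. Of the 105 higher small RNA genes, 23 were also 2-fold higher when mAKT was added to RWPE1-ERG cells, and of the 72 lower ones 14 were also 2-fold lower. These are 21.9% and 19.4% of them, beside 15.0% of all 420 small RNA genes that were higher and 17.9% that were lower in that pair, and 1.66% and 2.23% of all 12265 genes. These genes are shorter than the fragments of a usual library and took 26.5% of the summed FPKM in the vector line and 29.0% in the mAKT line. The part of fragment length in their values was not tested.

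The SNORD4A row, a small nucleolar RNA that guides ribosomal RNA methylation, was 20.9 FPKM in RWPE1-vector and 137 FPKM in RWPE1-mAKT cells. RPPH1, the RNA of ribonuclease P, was 1467 and 471 FPKM, and RMRP, the RNA of the related ribonuclease MRP, was 3521 and 1563 FPKM. Both were also lower with mAKT in the ERG lines, with log2 ratios of −1.03 for RPPH1 and −1.34 for RMRP. The 3 rows of the epithelial miR-200 cluster on chromosome 1, chosen after their values were seen, were listed at 0 in RWPE1-vector cells and at 12.5 FPKM for MIR200B, 9.02 for MIR200A and 10.4 for MIR429 in RWPE1-mAKT cells. In the pair with ERG, MIR200A and MIR429 were listed at 0 in both lines and MIR200B was 11.2 and 25.5 FPKM. The rows measure reads at the hairpin genes in polyadenylated RNA and not mature microRNAs.

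The median log2 ratio of the other 11845 genes was 0.02, 90% lay between −0.29 and 0.32, and 11574 (97.7%) were within 1.5-fold. As deposited, 6502 of the 11845 were above 0 and 5343 were below. The counts of list and family members above or below 0 that follow are also as deposited and stand beside these. In all, 71 (0.599%) passed 2-fold. Of these, 40 (0.338%) were at least 2-fold higher with mAKT and 31 (0.262%) were at least 2-fold lower. When the lines were scaled to one total FPKM, which moved each ratio of a well expressed gene by about −0.20, 28 were higher and 45 were lower. The 2-fold higher genes were 8 keratin and SPRR genes and 32 others, and the lower genes were VCAN and 30 others.

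**Figure D1:**
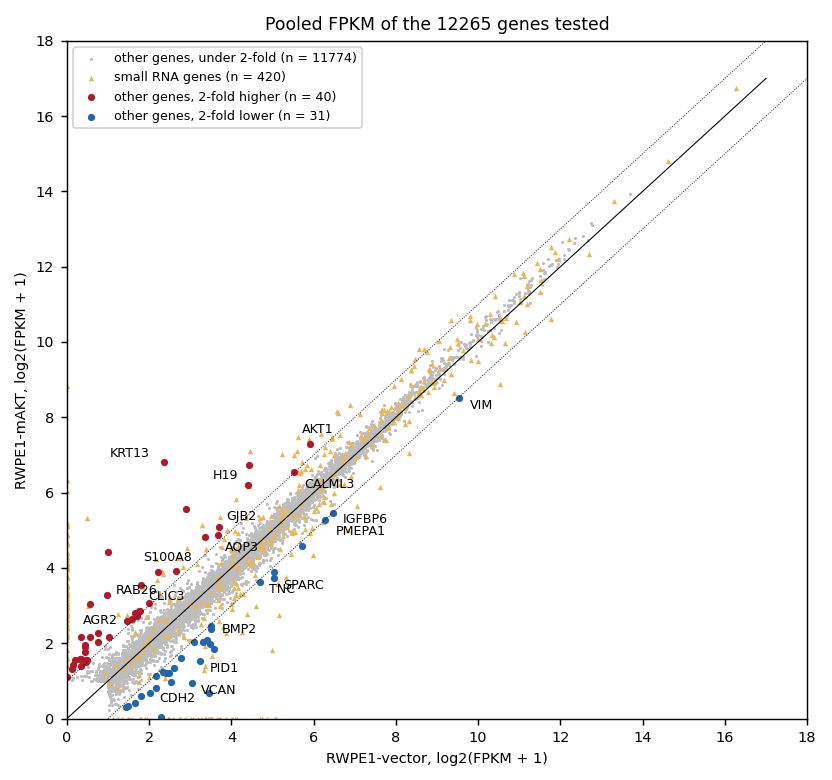
Pooled FPKM of each of the 12265 genes in RWPE1-vector cells (x axis) and RWPE1-mAKT cells (y axis), both as log2(FPKM + 1), 1 point per gene. The solid line marks equal values and the dotted lines a 2-fold difference. Small RNA genes (triangles) scatter on both sides, and 40 other genes lie above and 31 below the dotted lines.

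The same contrast was available in cells that express ERG, in libraries that are not shared with the first pair. Of the 40 higher genes, 37 were above 0 and 32 (80.0%) were also 2-fold higher in RWPE1-ERG/mAKT over RWPE1-ERG cells, where 141 of the 11845 genes (1.19%) passed 2-fold in that direction. Of the 31 lower genes, 26 were below 0 and 10 (32.3%) were also 2-fold lower, where 198 (1.67%) passed 2-fold. Whether the effect of mAKT differed between the backgrounds was not tested.

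The cornified envelope is the protein shell of terminally differentiated squamous cells. Of 44 listed genes of this kind, 17 reached 1 FPKM, 2 were 2-fold higher and none was lower, with a median log2 ratio of 0.34 against 0.02 over all genes. Members that reached 1 FPKM only in RWPE1-mAKT cells, IVL among them, had their direction fixed in advance. The part of this limit in the median was not tested. IVL, or involucrin, an envelope precursor (chromosome 1, 152881039 to 152884362), was 0.260 FPKM in RWPE1-vector and 1.64 in RWPE1-mAKT cells, and 0.791 and 4.43 in the pair with ERG. CALML3, a calmodulin-like protein of epithelia, was 44.6 and 92.7 FPKM, and 24.2 and 103 in the pair with ERG. Just under 2-fold, the adhesion protein LYPD3 was 3.13 and 6.82 FPKM, a log2 ratio of 0.92, and cystatin A (CSTA), a protease inhibitor of the envelope, was 67.1 and 125 FPKM, a log2 ratio of 0.89. TGM1, the transglutaminase that crosslinks the envelope, was 4.40 and 5.85 FPKM. ECM1 was the lowest member, at 11.96 and 9.99 FPKM.

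Kallikreins are secreted serine proteases, and the squamous serpins are inhibitors of proteases. This list had the highest median of the 38 pathway lists, 0.63, with 5 of 12 members 2-fold higher and 1 lower. The kallikrein genes lie together on chromosome 19, between KLK5 at 51446559 and the end of KLK10 at 51523431. KLK5, a protease of desquamation, was 0.700 FPKM in RWPE1-vector and 3.87 in RWPE1-mAKT cells. KLK10 was 0.259 and 2.00 FPKM, KLK8 was 1.77 and 5.01, KLK9 was 1.03 and 2.26, and KLK6 was 0.452 and 1.16. All 5 measured members of the cluster had a log2 ratio above 0. For KLK5, KLK10 and KLK6 this was fixed in advance, since they reached 1 FPKM only in RWPE1-mAKT cells. In the pair with ERG, KLK5 had a log2 ratio of 0.87, KLK10 of 1.58 and KLK8 of 1.92.

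The serpin genes of chromosome 18 did not move together. SERPINB13 (61254534 to 61266433) was 2.00 FPKM in RWPE1-vector and 5.21 in RWPE1-mAKT cells, and SERPINB7 (61420281 to 61472610) was 1.02 and 3.51 FPKM. SERPINB2, the plasminogen activator inhibitor PAI-2, lies next in the same cluster (61554939 to 61571124) and was 9.67 and 3.23 FPKM, a log2 ratio of −1.33. SERPINB5, or maspin, the most abundant of them, was 200.1 and 181 FPKM and differed by less than 1.5-fold. In the pair with ERG the log2 ratio was 2.64 for SERPINB13, 1.13 for SERPINB7 and −0.42 for SERPINB2. The median of the list rested on low genes, since it was −0.08 among members with 5 FPKM or more in either line.

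S100 proteins are small calcium-binding proteins, most of them encoded in the epidermal differentiation region of chromosome 1. All 13 measured members had a log2 ratio above 0, with a median of 0.34, which was 0.14 when the lines were scaled to one total. S100A8, a subunit of calprotectin (153362508 to 153363664), was 3.64 FPKM in RWPE1-vector and 13.9 in RWPE1-mAKT cells, and 1.60 and 137 in the pair with ERG. Its partner S100A9 was 33.0 and 51.6 FPKM without ERG and 38.4 and 691 with ERG. S100A14 was 578 and 903 FPKM, and S100A2 was 4207 and 6420 FPKM. S100A11 and S100A10, which are broadly expressed, were within a log2 ratio of 0.06.

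Of 19 transcription factors of surface epithelia 1 passed 2-fold, and their median was 0.22, or 0.05 with the lines scaled to one total. ELF3, an ETS factor of epithelial differentiation, was 2.26 FPKM in RWPE1-vector and 5.57 in RWPE1-mAKT cells, and 5.81 and 23.4 in the pair with ERG. TFAP2C was 4.17 and 7.43 FPKM, and the grainyhead factors GRHL1 and GRHL2 were 1.76 and 3.20 FPKM and 6.88 and 10.3 FPKM. EHF, an ETS factor close to ELF3, had a log2 ratio of −0.50, at 3.74 and 2.35 FPKM. TP63, the basal cell regulator, was 36.3 and 39.2 FPKM, and KLF4 was 6.81 and 6.95 FPKM.

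Other higher genes fall outside these lists and are named here because they passed 2-fold, which was known when they were chosen. AGR2, a protein disulfide isomerase of secretory and luminal cells (chromosome 7, 16832264 to 16844738), was 0.466 FPKM in RWPE1-vector and 7.27 in RWPE1-mAKT cells, and 0.690 and 4.98 in the pair with ERG. It was the highest of the 9 prostate luminal genes measured, whose median was 0.23. RAB26, a small GTPase of secretory granules (chromosome 16, 2198145 to 2204162), was 0.948 and 8.65 FPKM, and 1.68 and 17.6 with ERG. AQP3, the water and glycerol channel of keratinocytes, was 11.8 and 28.5 FPKM, and 4.97 and 62.3 with ERG. The sterol sulfotransferase SULT2B1 was 0.683 and 3.07 FPKM, the protease inhibitor A2ML1 was 0.103 and 1.66, and the surface antigen LY6D was 0.470 and 3.44. These 6 genes were also 2-fold higher in the pair with ERG.

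Not all of the higher genes passed 2-fold in the ERG lines. CLIC3, a chloride intracellular channel protein, was 2.47 and 10.6 FPKM without ERG but 8.42 and 10.95 with ERG, a log2 ratio of 0.34. The imprinted noncoding RNA H19 was 20.3 and 72.9 FPKM, and 18.9 and 37.6 with ERG, just under 2-fold. By contrast NEFL, the light neurofilament, at 2.45 and 6.20 FPKM, and CXXC5, a zinc finger protein, at 2.35 and 6.27 FPKM, passed 2-fold in both pairs.

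Some rows share their reads with a near copy or an overlapping gene and are uncertain. Of the higher and lower genes, 9 and 7 overlap another row. The histone variant gene H3F3A was 20.5 and 105 FPKM, while H3F3AP4, a processed copy, was 683 and 686 FPKM, and H3F3A had a log2 ratio of −0.82 in the pair with ERG. RNF5 was 9.19 and 27.5 FPKM while its copy RNF5P1, at the same position of a haplotype contig, was 31.8 and 13.7. HYPK had the lowest ratio of all genes other than small RNA genes, −2.77, at 9.95 and 0.605 FPKM, and lies within the readthrough row SERF2-C15ORF63, which was 98.6 and 145 FPKM. HYPK was low again with mAKT in the ERG lines, at 7.46 and 0.749 FPKM.

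**Figure D2:**
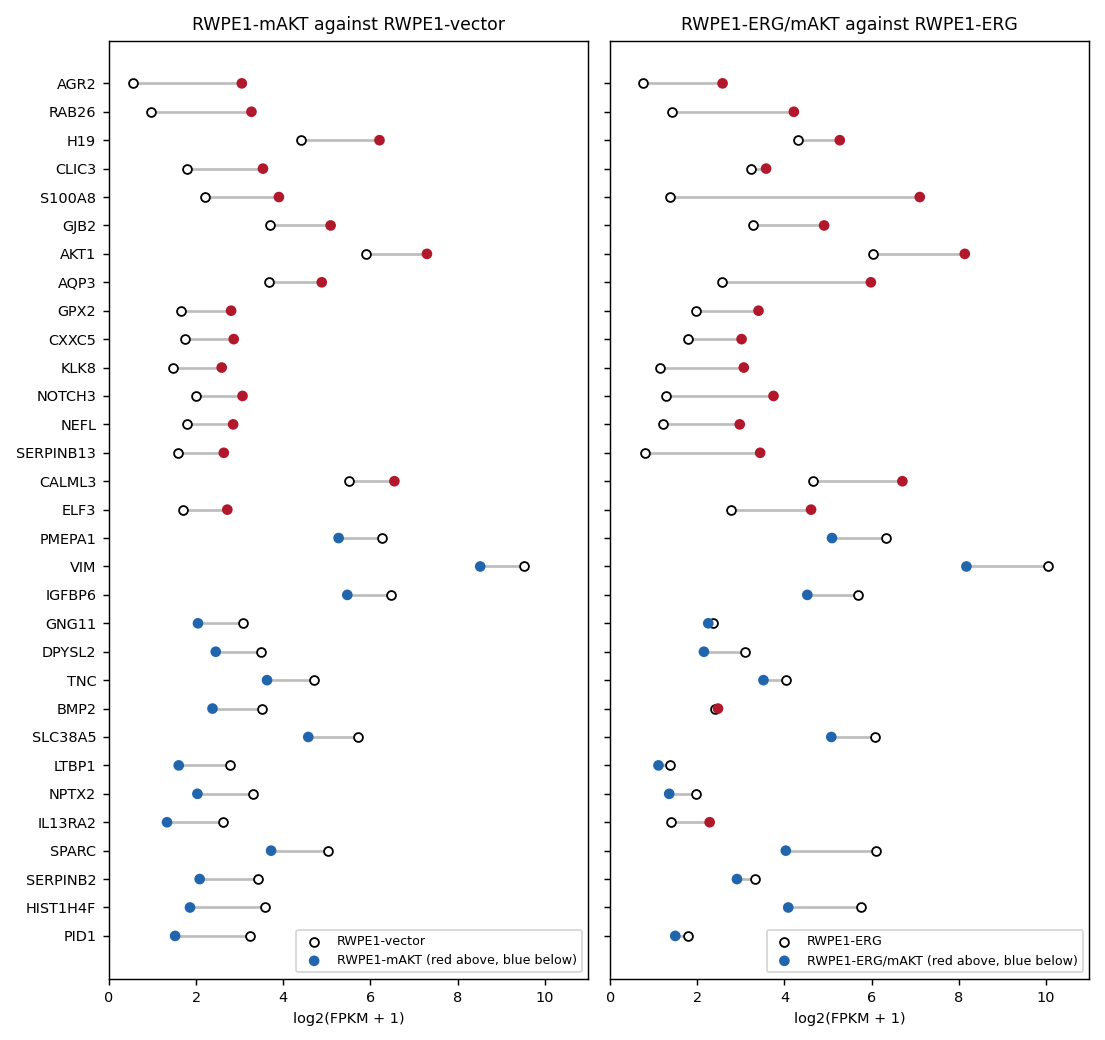
Pooled log2(FPKM + 1) of the genes other than keratins, SPRR genes, VCAN and small RNA genes that passed 2-fold and reached 5 FPKM in either line, except the uncertain H3F3A, RNF5, RNF5P1 and HYPK and a gene not reported here (open circles without mAKT, filled circles with mAKT), without ERG at left and with ERG at right. AGR2, S100A8 and AQP3 were higher with mAKT in both pairs, while IL13RA2 was lower at left and higher at right. BMP2 was lower at left and nearly equal at right (log2 ratio 0.07).

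Of the 23 measured members of a list of epithelial-mesenchymal transition genes, 5 were 2-fold lower and none was 2-fold higher. Their median log2 ratio was −0.28, which became −0.48 with the lines scaled to one total, and was −0.96 in the pair with ERG. CDH2, or N-cadherin (chromosome 18, 25530927 to 25757410), was 3.04 FPKM in RWPE1-vector and 0.610 in RWPE1-mAKT cells, and 7.38 and 0.666 in the pair with ERG. CDH11, or osteoblast cadherin, was 3.51 and 0.757 FPKM. SPARC, a collagen-binding matrix protein, was 31.6 and 12.2 FPKM, and 67.5 and 15.4 with ERG. The matrix glycoprotein tenascin C (TNC) was 24.9 and 11.4 FPKM. VIM, encoding vimentin, had a log2 ratio of −1.01, and −1.87 with ERG.

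The rest of that list was nearer to 0. FN1, or fibronectin, was 83.7 and 53.4 FPKM without ERG, a log2 ratio of −0.64, and 228 and 23.8 FPKM with ERG, a log2 ratio of −3.20. LOX, a collagen crosslinking enzyme, was 4.68 and 2.40 FPKM, and the adhesion protein TGFBI was 171 and 115 FPKM. The transcription factors of this programme differed by less than 1.5-fold, SNAI2 at 68.5 and 54.9 FPKM, TWIST1 at 5.66 and 4.95, and TWIST2 at 18.1 and 12.5. The fibroblast gene COL1A1 was 2.05 and 1.93 FPKM.

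Receptors and matrix of cell adhesion held no gene past 2-fold in the integrin and laminin list. Of 20 measured integrin and laminin genes 16 were below 0, with a median of −0.17, among them ITGA4 at 2.50 and 1.02 FPKM and ITGB5 at 36.4 and 24.3. Of 15 collagen genes 11 were below 0, with a median of −0.13, COL8A1 at 7.33 and 4.72 FPKM being the lowest. Among plasminogen activators, matrix metalloproteinases and their inhibitors, the median was −0.22. In that list the gelatinase gene MMP2 was 1.59 and 0.483 FPKM, whereas TIMP3, an inhibitor of metalloproteinases, was higher at 5.14 and 8.65 FPKM.

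Genes of the TGF-beta and BMP pathways, in which secreted ligands signal through SMAD factors, included 2 of the lower genes among 18 measured, with a median of −0.16. BMP2, a ligand (chromosome 20, 6748745 to 6760910), was 10.4 FPKM in RWPE1-vector and 4.19 in RWPE1-mAKT cells. LTBP1, which holds latent TGF-beta in the matrix, was 5.84 and 2.03 FPKM. The BMP antagonist NOG was 1.96 and 0.539 FPKM, a log2 ratio of −0.95, and TGFB1 itself was 43.2 and 30.1. The receptors TGFBR1 and TGFBR2 and the signal transducer SMAD3 were within a log2 ratio of 0.18. Outside the list, PMEPA1, a SMAD-induced inhibitor of the pathway, was 76.3 and 37.6 FPKM, and 79.3 and 33.1 with ERG. BMP2 and LTBP1 were less different in the pair with ERG, with log2 ratios of 0.07 and −0.26. Both were lower in RWPE1-ERG than in RWPE1-vector cells, BMP2 at 4.28 and 4.56 FPKM in that pair and LTBP1 at 1.58 and 1.16.

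Among 23 YAP target genes, which respond to cell shape and contact, none passed 2-fold and the median was −0.05. The matrix-associated genes CYR61 and CTGF were the lowest, at 65.4 and 37.7 FPKM and at 10.2 and 6.33 FPKM, and CYR61 was 255 and 51.5 FPKM in the pair with ERG.

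Other lower genes came from no list. NDN, or necdin, an imprinted growth suppressor, was 3.84 FPKM in RWPE1-vector cells and 0.0353 FPKM in RWPE1-mAKT cells, and was 0.263 FPKM and listed at 0 in the pair with ERG. PID1, an adaptor that binds the LRP1 receptor and has been tied to insulin signaling, was 8.48 and 1.86 FPKM, and DIXDC1, a DIX domain protein of the WNT pathway, was 4.74 and 0.952. The amino acid transporter SLC38A5 was 51.4 and 22.8 FPKM, and 66.3 and 32.7 with ERG. IL13RA2, a decoy receptor of interleukin 13, was 5.12 and 1.52 FPKM, and the phosphatase gene PTPRZ1 was 4.04 and 1.35. IL13RA2 was the other way round in the pair with ERG, at 1.62 and 3.87 FPKM. PID1, DIXDC1 and PTPRZ1 had log2 ratios of −0.30, −0.03 and 0.15 there. They were already low in RWPE1-ERG cells, PID1 at 2.47 and 1.82 FPKM, DIXDC1 at 1.21 and 1.17, and PTPRZ1 at 0.502 and 0.664.

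Among the components of the PI3K and AKT pathway, no measured member of the 28 apart from AKT1 passed 2-fold, and the median was −0.05. The catalytic subunits PIK3CA and PIK3CB were 5.69 and 5.23 FPKM and 5.52 and 5.99 FPKM. The mTOR kinase gene MTOR was 10.4 and 11.3 FPKM, the TSC genes TSC1 and TSC2 were 5.40 and 5.11 FPKM and 13.15 and 13.99 FPKM, and RHEB, which activates mTORC1, was 44.6 and 39.4.

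Targets of FOXO factors, which AKT restrains, showed no common direction. None of the 27 measured passed 2-fold, 16 were above and 11 below 0, and the median of 0.03 turned to −0.13 with the lines scaled to one total. The range ran from BCL6, a transcriptional repressor, at 4.76 and 3.20 FPKM (log2 ratio −0.46), to the death ligand TNFSF10 at 1.04 and 1.96 (0.54). The cell cycle inhibitor CDKN1B was 10.5 and 12.7 FPKM, the apoptosis gene BCL2L11 was 4.14 and 4.25, and TXNIP, a regulator of glucose uptake, was 70.9 and 68.8. IRS2, the insulin receptor substrate, was 11.6 and 8.56 FPKM, ERBB3 was 2.90 and 4.25, KLF6 was 58.9 and 46.9, and DDIT4, an inhibitor of mTORC1, was 613 and 885 FPKM. The stress genes CAT, SOD2, GADD45A, SESN1 and SESN3 lay between −0.14 and 0.22. FOXO1 and FOXO3, themselves listed as targets, were 2.99 and 2.75 FPKM and 8.147 and 8.198 FPKM.

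Of 15 IGF and insulin signaling genes 1 was lower, IGFBP6, a binding protein that sequesters IGF2. It was 88.1 FPKM in RWPE1-vector and 43.3 in RWPE1-mAKT cells, and 50.6 and 22.0 in the pair with ERG. IGFBP4 was 2.95 and 1.29 FPKM and IGFBP2 was 37.3 and 51.2, and the list's median was 0.00.

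Of the lists of sterol, fatty acid, glycolysis and pentose phosphate genes, routes that AKT and mTORC1 promote, none held a gene past 2-fold. Sterol synthesis genes had a median of 0.00 over 24 genes, with INSIG1, the sterol sensor partner, at 57.1 and 40.1 FPKM as the lowest. The medians of the fatty acid list (0.03 over 16 genes), the glycolysis list (0.10 over 25) and the pentose phosphate list (0.19 over 7) turned negative with the lines scaled to one total. The pentose phosphate median kept its sign when the lines were scaled on genes other than small RNA genes. GAPDH was 3347 and 4728 FPKM and LDHB 554 and 758, while none of the 25 glycolysis genes was lower by more than 0.09 on the log2 scale. Targets of ATF4, the amino acid response factor that mTORC1 promotes, had 22 of 27 members above 0 and a median of 0.12, which was −0.07 with the lines scaled. CHAC1, which degrades glutathione, was 3.77 and 6.38 FPKM in that list. Among 21 NRF2 targets, GPX2, a glutathione peroxidase, was 2.16 and 5.98 FPKM, and 2.90 and 9.59 with ERG. FTH1, the ferritin heavy chain, was 759 and 1014 FPKM in the same list, whose median of 0.10 was −0.07 with the lines scaled. Hypoxia-induced genes had a median of −0.13, with CA9 at 13.5 and 8.93 FPKM and VEGFA at 8.86 and 12.2, and lysosome and autophagy genes had one of −0.08, with CTSD at 171 and 238 FPKM.

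**Figure D3:**
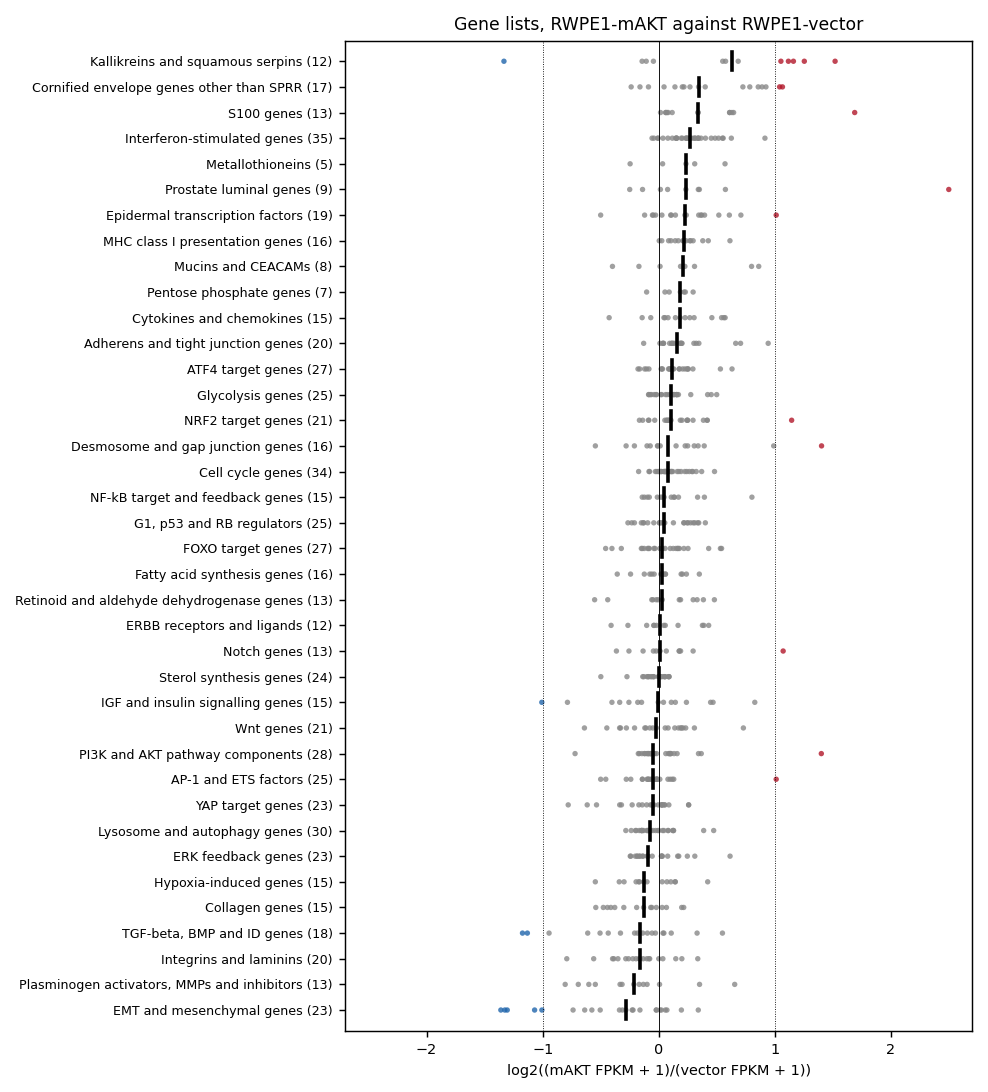
Log2 ratio of (FPKM + 1), RWPE1-mAKT over RWPE1-vector, of the members of each list with 1 FPKM or more in either line (number in brackets), with the list's median as a bar and 2-fold marked by dotted lines. Kallikreins and squamous serpins had the highest median and mesenchymal genes the lowest. Of the 41 list medians, 14 changed sign when the lines were scaled to one total FPKM, glycolysis, cell cycle, ATF4 and adherens junction genes among them. Scaled on genes other than small RNA genes, 12 changed sign, adherens junction genes not among them.

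Cell junction genes of epithelia differed in part. Of the 16 desmosome and gap junction genes 1 passed 2-fold. GJB2, or connexin 26 (chromosome 13, 20761604 to 20767114), was 11.9 FPKM in RWPE1-vector and 33.0 in RWPE1-mAKT cells, and 8.75 and 29.1 with ERG. Its neighbour GJB6, or connexin 30, was 0.907 and 2.78 FPKM, a log2 ratio of 0.99, whereas the desmosomal cadherin DSG2 was 54.501 and 36.999. In the adherens and tight junction list 19 of 20 genes were above 0 as deposited, beside 6502 of the 11845 genes other than small RNA genes. The median of the list was 0.16, which was −0.03 with the lines scaled to one total. This median kept its sign when the lines were scaled on genes other than small RNA genes. CLDN1, or claudin 1, was 5.11 and 10.7 FPKM, CLDN4 was 8.23 and 14.03, and CDH1, or E-cadherin, was 33.7 and 43.0.

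Interferon-stimulated genes had 31 of 35 members above 0, none past 2-fold, and a median of 0.26 that was 0.08 with the lines scaled. IFI27 was 3.96 FPKM in RWPE1-vector and 8.34 in RWPE1-mAKT cells, and 15.7 and 30.9 with ERG. OASL was 5.06 and 8.33 FPKM, IFITM3 was 350 and 451, and the transcription factor IRF9 was 8.62 and 8.24 FPKM. All 16 genes of MHC class I presentation were above 0, with a median of 0.22, or 0.03 with the lines scaled, and −0.05 in the pair with ERG. The immunoproteasome subunit PSMB9 was 15.6 and 24.4 FPKM. In the cytokine list CCL20 was 2.45 and 4.09 FPKM, and among NF-kB targets TNFAIP2 was 3.08 and 6.12 FPKM and the inhibitor NFKBIA was 19.8 and 25.2.

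Feedback genes of the ERK pathway had a median of −0.09 over 23 genes with none past 2-fold. EGR1 was the farthest, at 24.3 and 37.7 FPKM, and was the other way round in the pair with ERG, at 37.6 and 23.4. The ERK phosphatase DUSP6 was 86.2 and 74.8 FPKM, and MYC was 181 and 190. Of 13 Notch genes, NOTCH3, a receptor of differentiating layers, was 2.98 and 7.37 FPKM, and 1.44 and 12.4 with ERG. NOTCH1 was 17.97 and 22.28 FPKM. In the Wnt list of 21 genes TCF7L1, a repressor of Wnt targets, was 2.60 and 4.97 FPKM, and the secreted antagonist SFRP1 was 53.5 and 34.0, with a median of −0.02.

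Smaller lists added single genes. Of 9 prostate luminal genes, GATA2 was next to AGR2, at 1.19 and 2.26 FPKM. In the mucin list of 8 genes the surface antigen gene PSCA was 2.50 and 5.36 FPKM and MUC1 was 1.01 and 1.48. Among 13 retinoid and aldehyde dehydrogenase genes, CRABP2, which carries retinoic acid to its receptors, was 17.1 and 24.3 FPKM, and DHRS3, which reduces retinal, was 26.1 and 17.5. The metallothionein MT2A, a metal buffer, was 13332 and 15674 FPKM without ERG but 19639 and 6088 with ERG. Of 12 ERBB receptors and ligands none passed 2-fold, with the receptor inhibitor LRIG1 at 3.26 and 2.204 FPKM and ERRFI1 at 32.0 and 41.9. IGFL1, a member of the IGF-like family, was 1.97 and 4.27 FPKM.

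Cell cycle genes had 28 of 34 members above 0 as deposited, none past 2-fold, and a median of 0.08 that became −0.11 with the lines scaled to one total. MKI67, the proliferation marker, was 24.2 and 34.2 FPKM without ERG and 24.9 and 23.9 with ERG. AURKB was 90.5 and 117 FPKM, and no member passed 2-fold. The list of G1, p53 and RB regulators had a median of 0.04, which turned to −0.13 with the lines scaled, with CCND1 at 55.3 and 68.7 FPKM.

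Gene families selected by symbol after their values were seen showed a difference within the histones. The clustered histone genes encode the replication-dependent histones, whose mRNAs normally end in a stem-loop without a poly(A) tail. Of 58 measured, 54 were below 0 and 1 was 2-fold lower, the median was −0.52, and their summed FPKM was 1331 in RWPE1-vector and 964 in RWPE1-mAKT cells. The median was −0.70 with the lines scaled and −1.11 in the pair with ERG. HIST1H4F was 10.9 and 2.63 FPKM, HIST1H4A was 23.3 and 11.9, and HIST1H2BE was an exception at 2.89 and 5.58. Histone genes outside the clusters, 9 in number without H3F3A and mostly polyadenylated, had a median of 0.08 and a range from −0.11 to 0.56, with H2AFZ at 546 and 627 FPKM and H3F3B at 225 and 209. Since the libraries were made from polyadenylated RNA, the amount of histone mRNA and the share of it with a tail cannot be told apart.

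Cytosolic ribosomal protein genes, targets of mTORC1 in translation, were above 0 for 78 of 82 genes. Their median was 0.24, which was 0.04 with the lines scaled to one total, and −0.35 in the pair with ERG. Mitochondrial ribosomal proteins (0.13), the NDUF subunits of respiratory complex I (0.17), ATP synthase subunits (0.17) and proteasome subunits (0.13) had positive medians as deposited and negative ones with the lines scaled, whereas the median of 21 COX genes of the respiratory chain, 0.26, stayed positive at 0.06. The total used for scaling includes the small RNA genes. Family medians scaled on the other genes, which moves ratios less, are not given here. Of the 19 SNHG genes, which host small nucleolar RNAs in their introns, 17 were above 0, with a median of 0.21, or 0.01 with the lines scaled. SNHG25 was 2067 and 3331 FPKM and SNHG5 was 468 and 721, and both had negative log2 ratios with ERG, −1.02 and −0.43. Zinc finger genes of the ZNF family had a median of −0.05, with 250 of 367 below 0.

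**Figure D4:**
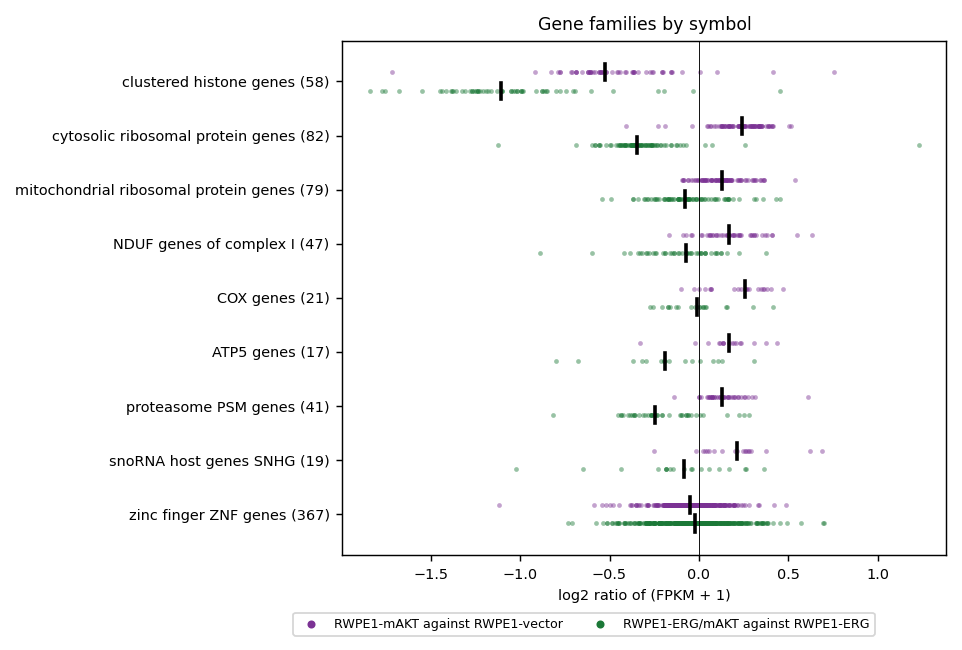
Log2 ratio of (FPKM + 1) of the members of 9 gene families (number of genes in brackets), mAKT over vector in purple and ERG/mAKT over ERG in green, with medians as black bars. The median of the clustered histone genes lay below 0 in both pairs, with 4 of 58 genes above 0 in the first. The ribosomal protein medians lay on opposite sides of 0, and the medians of the mitochondrial, complex I, ATP5 and proteasome families turned negative in the first pair when the lines were scaled to one total FPKM. That total includes the small RNA genes.

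To see what else the differing genes shared, their promoters were searched for short motifs. The promoter was taken as the 250 bases before to 50 bases after the gene start, from RefSeq on GRCh38.p14, and 9629 of the 11845 genes had one. AP-1 factors, dimers of JUN and FOS proteins, bind TGAGTCA or TGACTCA. The motif searched, TGANTCA, also allows A or T in the middle, and its shares do not separate these forms. It reads the same on both strands apart from its central base. This motif was present in 20 of 88 promoters (22.7%) of genes at least 1.5-fold higher with mAKT and in 7 of 110 (6.36%) of genes at least 1.5-fold lower. It was present in 426 of all 9629 (4.42%) and in 7.71% of the 35116 promoters of the table. At 2-fold the shares were 5 of 28 (17.9%) and 1 of 23 (4.35%). Over all 11845 genes, 128 (1.08%) were 1.5-fold higher and 143 (1.21%) were lower. Of the 20 genes, 4 were SPRR genes that lie side by side and resemble each other, and 16 were others. Most of the 20, IVL, KRTDAP and SBSN among them, reached 1 FPKM only in RWPE1-mAKT cells. They were compared for that reason, which fixed their direction. Of the lower genes with the motif, only ADAMTS12 and PCSK1N reached 1 FPKM in RWPE1-vector cells alone. The part of this limit in the shares was not tested.

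The stretch from 180 to 31 bases before the start is shown for 6 higher genes with the motif and for SERPINB2, a lower gene with the motif, from RefSeq on GRCh38.p14, 5′ to 3′ on the gene's strand. Capitals mark the TGANTCA matches.
IVL, chr1:152908366-152908515, plus strand: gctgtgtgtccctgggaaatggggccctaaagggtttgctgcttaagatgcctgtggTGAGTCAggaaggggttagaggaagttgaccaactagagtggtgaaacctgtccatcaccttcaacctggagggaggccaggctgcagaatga
SERPINB13, chr18:63587163-63587312, plus strand: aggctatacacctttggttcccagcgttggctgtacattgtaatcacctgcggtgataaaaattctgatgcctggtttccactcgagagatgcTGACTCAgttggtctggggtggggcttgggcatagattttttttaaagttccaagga
KRTDAP, chr19:35490495-35490644, minus strand: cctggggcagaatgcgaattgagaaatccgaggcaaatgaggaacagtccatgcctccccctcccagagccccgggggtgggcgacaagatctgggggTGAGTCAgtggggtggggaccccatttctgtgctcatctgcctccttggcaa
SBSN, chr19:35528342-35528491, minus strand: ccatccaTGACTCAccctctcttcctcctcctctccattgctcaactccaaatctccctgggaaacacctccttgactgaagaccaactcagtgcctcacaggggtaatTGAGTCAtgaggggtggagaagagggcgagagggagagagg
S100A2, chr1:153565875-153566024, minus strand: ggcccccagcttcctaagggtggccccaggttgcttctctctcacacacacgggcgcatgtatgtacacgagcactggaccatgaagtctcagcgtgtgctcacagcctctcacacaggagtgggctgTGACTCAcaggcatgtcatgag
CLDN4, chr7:73830816-73830965, plus strand: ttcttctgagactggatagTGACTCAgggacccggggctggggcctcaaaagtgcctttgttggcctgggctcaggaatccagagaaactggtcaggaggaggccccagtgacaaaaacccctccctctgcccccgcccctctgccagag
SERPINB2, chr18:63887525-63887674, plus strand: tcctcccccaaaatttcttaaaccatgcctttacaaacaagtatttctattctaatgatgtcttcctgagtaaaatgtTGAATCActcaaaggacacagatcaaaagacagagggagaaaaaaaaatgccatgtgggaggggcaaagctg

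The match lies 123 bases before the start of IVL and 87 before that of SERPINB13, which were 2-fold higher. In the promoters of KRTDAP and SBSN, nearby genes of cornified cells on chromosome 19, it lies at 82 bases and at 173 and 71 bases. KRTDAP was 0.396 FPKM in RWPE1-vector and 1.31 in RWPE1-mAKT cells, and SBSN was 0.275 and 1.19. The matches of S100A2 and CLDN4 lie 52 and 161 bases before the start, and CLDN4 has a further match outside the stretch shown. SERPINB2, which was lower, has TGAATCA at 102 bases, and the 6 higher genes carry TGAGTCA or TGACTCA in the stretches shown. The promoters shown were picked as examples, with 1 lower gene. The middle base was not compared over the other higher and lower genes with the motif. A match is a description of the letters and does not show that a factor is bound.

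The AP-1 genes themselves did not follow the higher group. FOS was 8.86 FPKM in RWPE1-vector and 8.23 in RWPE1-mAKT cells, JUN was 44.81 and 43.99, JUNB was 111 and 118, and FOSL1 was 119 and 100.4. JUND was 78.2 and 56.7 FPKM, a log2 ratio of −0.46.

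Shares of other motifs were computed in the same way. The FOXO motif GTAAACA, searched on both strands, was in 3.41% of the 1.5-fold higher, 2.73% of the 1.5-fold lower and 2.17% of all tested promoters. The E-box CACGTG, which reads the same on both strands, was in 2.27%, 3.64% and 10.6%. The sterol response element TCACNCCAC, searched on both strands, was in 1.14%, 1.82% and 1.08%.

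Chromatin at the gene starts was read from 1 library per track, so no spread between libraries was known. Intervals are 95% Wilson intervals over genes and cover counting error only. An ATAC-seq peak of RWPE1-mAKT cells, which marks open chromatin, lay within 1 kb of the start of 88 of 122 genes 1.5-fold higher (72.1%, 63.6 to 79.3%). It lay there in 97 of 139 genes 1.5-fold lower (69.8%, 61.7 to 76.8%) and in 87.9% of the 11227 genes within 1.5-fold. A region of H3K27me3, the repressive mark of Polycomb, in RWPE1-vector cells lay there in 23.0% of the higher genes, 30.9% of the lower genes and 10.1% of the others. At 2-fold, H3K27me3 was at 9 of 38 higher genes (23.7%, 12.99 to 39.2%) and 12 of 29 lower genes (41.4%, 25.5 to 59.3%). For both directions the share with an open start lay below, and that with a marked start above, the share of the other genes. The differing genes were also less expressed, with a median FPKM in the higher line of 6.16 and 6.9 against 11.7. The part of expression level in these shares was not tested. Only 29 of the 492265 H3K27me3 regions had a q-value of 0.01 or below, and none of these lay at a differing gene.

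**Figure D5:**
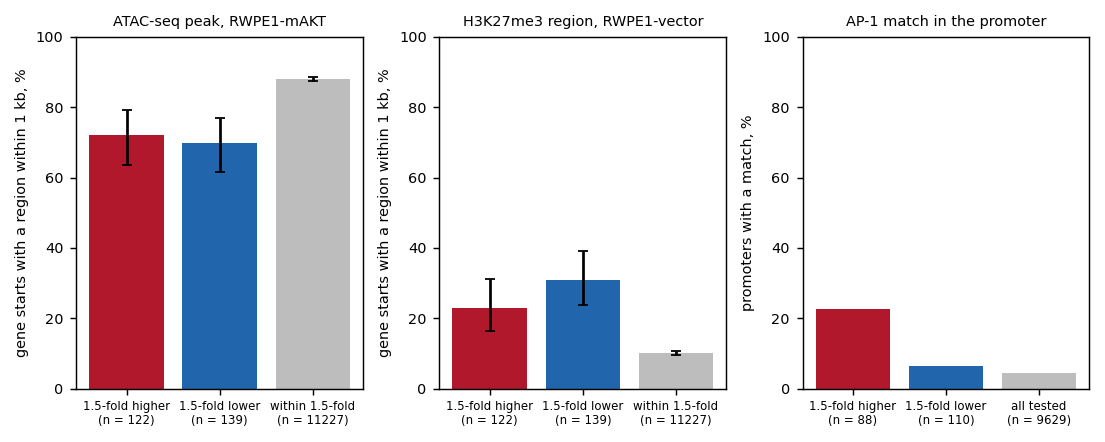
Share of gene starts with an ATAC-seq peak of RWPE1-mAKT cells (left) or an H3K27me3 region of RWPE1-vector cells (middle) within 1 kb, with 95% Wilson intervals, and share of promoters with TGANTCA (right), in percent, for genes other than small RNA genes. Starts of differing genes had a peak in 72.1% and 69.8%, against 87.9% of the others, and the motif was in 22.7% of the higher genes against 6.36% of the lower. Most of the higher genes with the motif reached 1 FPKM only with mAKT.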

How the data were processed

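RNA-seq was conducted on polyadenylated RNA of RWPE1-vector, RWPE1-mAKT, RWPE1-ERG and RWPE1-ERG/mAKT cells, with 3 libraries per line. Per the methods and the submitters' processing notes, reads were aligned to hg19 with TopHat2 and the authors computed FPKM with Cuffdiff, versions and strand setting not given in the sources used here. The deposited FPKM is 1 pooled value per line, and the table has 0 columns of single libraries. The authors' fold changes, test statistics, p-values and q-values in that table were not used.

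Genes reaching 1 FPKM in either line, 12265 in number, were compared as log2 ratios with a pseudocount of 1, and a 2-fold difference was counted. No test was run, because each line has 1 value. The members, the gene lists and the alternatives were chosen with earlier results of these data known, and the families, the promoter motif AP-1 and the 1.5-fold classes after the values were seen. Genes named, keratins, SPRR genes and VCAN apart, are the 15 largest rises and falls among genes reaching 5 FPKM in the higher and 0.5 FPKM in the lower line, up to 4 genes per list with the largest ratio, AKT genes, the measured FOXO targets, and markers, and others are named as examples chosen after their values were seen. Positions are the loci of the table on hg19, counted from 1, and 11802 of the tested genes matched a GENCODE symbol.

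ATAC-seq fragments (35688481 in RWPE1-mAKT) and H3K27me3 tags (19444504, with 15679418 of input, in RWPE1-vector) were aligned to hg19 with Bowtie2, and the authors called broad regions with MACS2, pooling DNA of 3 ChIP experiments. The deposited lists give the −log10 q-value of each region, which was used as a limit in an alternative. An ATAC-seq list attached to another sample's label was not used. Promoters came from RefSeq on GRCh38.p14, with the first promoter listed per gene. No coordinates were converted between builds. The values of some genes are not reported here.

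The code was tested on simulated data for this comparison: in 12265 drawn values, 200 of 200 given a 3-fold difference and 0 others were counted, 400 gene starts gave 0 differences from a direct count of overlaps, and 400 of 400 planted motifs were found. Scripts ran in Python 3.11.15 with scipy 1.17.1, pandas 2.3.3, matplotlib 3.10.9 and numpy 2.4.6.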

Additional observations from a re-analysis of the deposited data

How the results depend on the processing

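No paired analysis was possible because the deposited values are pooled per line and carry no replicate numbers, and for the same reason no library could be left out. Over all genes, against 145 higher and 103 lower, a 1.5-fold limit gave 273 and 239, a 3-fold limit 92 and 54, protein-coding genes alone 37 and 27, and leaving out small RNA genes 40 and 31. A pseudocount of 0.1 gave 155 lower genes. Without small RNA genes, against 40 higher and 31 lower, a pseudocount of 0.1 gave 80 and 78, no pseudocount 88 and 87, a minimum of 5 FPKM 22 and 19, a 1.5-fold limit 128 and 143, and a 3-fold limit 11 and 5. The pseudocount and minimum change these counts by construction, through low genes. Changes of sign were not counted for the 215 single-gene values. Scaling to one total FPKM moved 206 of them, so that small positive ratios, such as that of FOXO3 (0.008), turn negative. Of the 41 list medians 14 changed sign when the lines were scaled to one total FPKM, 12 when they were scaled on genes other than small RNA genes, 5 without a minimum, 2 with a minimum of 5 FPKM and 2 when centred on the median of all genes. Scaling moved the median of all genes to −0.16, or −0.11 when based on genes other than small RNA genes. With a window of 2 kb, ATAC-seq peaks were at 90.4% of genes that did not pass 2-fold, and H3K27me3 regions were at 47.4% of the 2-fold higher genes and 22.7% of the genes that did not pass it. At a q-value of 0.01, H3K27me3 regions were at 0% of the higher, the lower and the other genes. The settings chosen after the data were seen are those without small RNA genes. Depth could not be weighed, since the libraries' counts were not used here.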
